A study of Arabidopsis thaliana with 16 samples.

Results

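Among Arabidopsis root probe sets, 72 stood at least 1 log2 unit higher in both the aux1 and the ein2 mutant than in wild-type Col when no hormone was given. They were taken from 14244 probe sets tested, of 22746 non-control probe sets on the array. Testing took the probe sets with 2 or more of the 16 arrays above a log2 value of 4. A member had a group mean at least 1 higher in aux1 air than in Col air and in ein2 mock than in Col mock, with both mutant arrays above both Col arrays each time. FACT, LBD29, AT5G37690, AT2G23540, AT2G18370, AT3G58550, AT1G64405 and peroxidase genes were left out, which removed 12 of the 84 probe sets that met these limits. Peroxidase genes were recognised by locus, so a peroxidase could remain among the probe sets that carry no gene name here. Of the 72 members, 35 have 1 locus in the annotation and 37 are given by their probe set ID.

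Roots of seedlings grown for 3 days in the dark at 22 °C were measured on 16 Affymetrix arrays, in 8 groups of 2 arrays, after a 4 h treatment. In the ethylene experiment the groups were aux1 in 10 ppm ethylene, Col in 10 ppm ethylene, aux1 in air and Col in air. In the auxin experiment they were ein2 in 1 µM indole-3-acetic acid (IAA), Col in 1 µM IAA, ein2 in mock solution and Col in mock solution, the mock being 0.01% ethanol. The alleles were aux1-7 and ein2-5, each a whole-plant mutant line with no transgene named in the labels, and the wild type was Col-0. Roots were cut from the hypocotyl, and the series text calls the 2 arrays of a group biological replicates.

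AUX1 is an influx carrier that brings auxin into root cells, and EIN2 is a central membrane protein of ethylene signalling. Ethylene slows the growth of wild-type roots, and roots of both mutants keep elongating in it. The outer layers and the endodermis of a root build walls of polysaccharide and hydroxyproline-rich glycoprotein and, as they mature, lay down suberin, a polyester of fatty acids and phenolics. Expansins loosen such walls, GDSL lipases and BAHD-type acyltransferases handle acyl groups, and lipid-transfer proteins carry lipids out to the wall.

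Values are GCRMA expression values on the log2 scale, so a difference of 1 is a factor of 2 as measured. Array medians lay between 5.874 and 6.004, and the 2 arrays of a group correlated at 0.993 to 0.998 over all probe sets. Group means under 2.55, the highest lower quartile of any array, count as near background, so that differences from them are imprecise in size. In bulk roots, fewer cells of a type and less RNA per cell cannot be told apart. Of the root markers, EXPA7 and EXPA18 (root hair expansins) and CO2 (cortex) had a named probe set, and markers of endodermis, stele, xylem, root cap, shoot and non-hair cells were not used here. The summed linear level of EXPA7 and EXPA18 was 638 to 729 in aux1 air, against 734 to 1631 in Col air, and 713 to 996 in ein2 mock, against 384 to 652 in Col mock. On treated arrays the sum was 895 to 1313 in aux1 ethylene, against 1747 to 2663 in Col ethylene, and 561 to 829 in ein2 IAA, against 342 to 572 in Col IAA. These 2 root markers were present in every group. Their sum was lower in aux1 than in Col in ethylene, higher in ein2 than in Col in mock, and overlapping between ein2 and Col in IAA. In air it was also lower in aux1, but Col air replicate 2 (734) was close to aux1 air replicate 1 (729). In both Col and aux1 the sum was higher in ethylene than in air. CO2 read low, at a linear level of about 7.12 to 32.51 on the 16 arrays. The part of cell makeup in the results was not tested.

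The members were chosen by the untreated differences, which are therefore given without a test. The aux1 limit was met by 99 probe sets (0.695% of those tested) and the ein2 limit by 372 (2.61%), and the 84 that met both were 84.8% of the aux1 list and 22.6% of the ein2 list. Over the 72 members the median difference was 1.82 for aux1 minus Col in air (range 1.03 to 5.19), beside 0.01 over all probe sets tested. For ein2 minus Col in mock it was 3.04 (range 1.24 to 5.21), beside 0.03 over all probe sets tested. The ein2 difference was the larger of the pair in 60 members and the aux1 difference in 12. These were not the same wild-type samples: each mutant was set against the Col arrays of its own experiment.

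The members just inside the limit were 254109_at, with differences of 1.03 for aux1 in air and 1.36 for ein2 in mock, EXPA4, with 1.04 for aux1 in air and 2.19 for ein2 in mock, and 245928_s_at, with 1.06 for aux1 in air and 3.34 for ein2 in mock. Just outside it were CCR2 (AT1G80820, a cinnamoyl-CoA reductase of the phenolic pathway), with 0.98 for aux1 in air and 2.13 for ein2 in mock, 266415_at, with 0.97 for aux1 in air and 1.76 for ein2 in mock, and 259221_s_at, with 0.96 for aux1 in air and 2.45 for ein2 in mock. The limit thus runs through a continuous range of values. The filter was met on the untreated arrays alone by 71 of the 72 members, and 18 had no Col array above 4, so these could pass only through the mutants. Group means were near background for 12 members in Col air, 15 in Col ethylene, 11 in Col mock and 8 in Col IAA, for 3 in aux1 ethylene and for 0 in aux1 air, ein2 mock and ein2 IAA. The 2 Col air arrays differed for many members: the members' median level was 5.06 on replicate 1 and 4.05 on replicate 2. Without Col air replicate 1 the rule gave 104 probe sets, 69 of them members, and without Col air replicate 2 it gave 69, of which 62 were members.

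**Figure D1:**
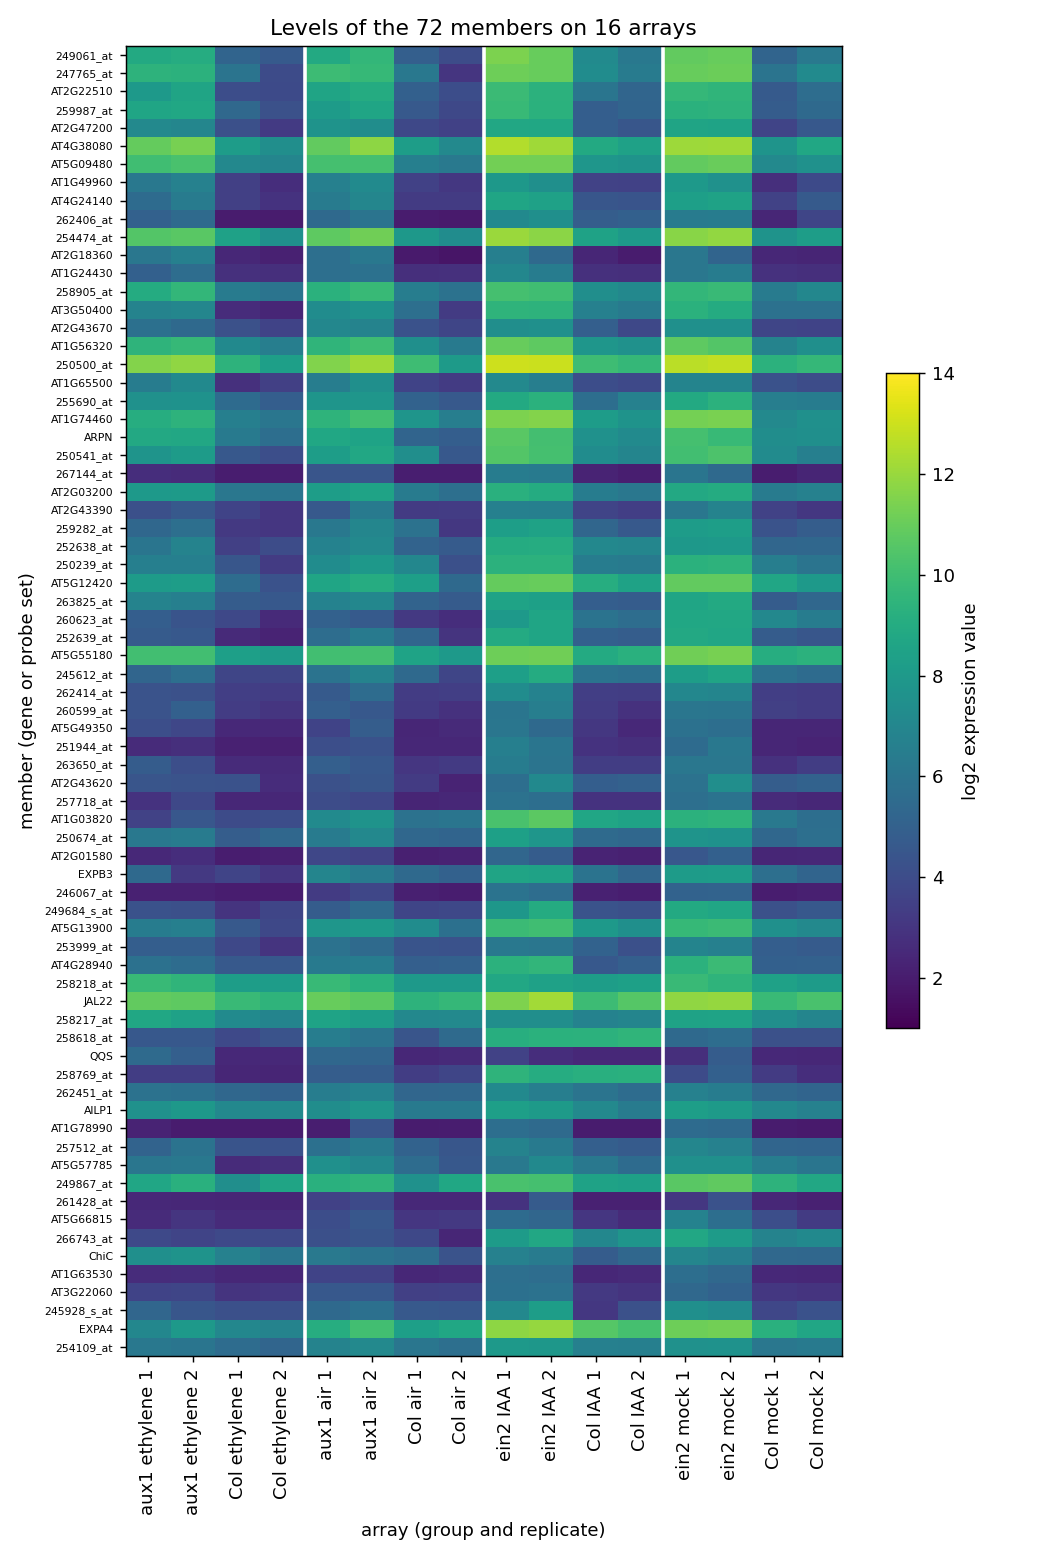
Level of each of the 72 members (rows) on each of the 16 arrays (columns), coloured by log2 expression value. Rows run from the largest to the smallest value of the smaller untreated difference. The mutant columns are the brighter ones in most rows, and the rows at the bottom differ least.

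Members stayed higher in the mutants on most arrays of hormone-treated roots, and more of them passed the test in ein2 than in aux1. The differences in the rule did not use these arrays, but its filter used all 16. In ethylene, 41 of 72 members were called higher in aux1 than in Col (limma, adjusted p under 0.05), where 1.01% of all probe sets tested were. In IAA, 62 of 72 were called higher in ein2 than in Col, where 3.95% of all were. None was called lower in limma in either contrast (0 of 72, with 0.920% of all probe sets lower in aux1 ethylene and 3.18% in ein2 IAA), and 0 members had an unadjusted p under 0.05 in that direction. Both aux1 ethylene arrays lay above both Col ethylene arrays in 67 members (17.3% of all probe sets), and both ein2 IAA arrays above both Col IAA arrays in 70 (26.7%), with 65 doing so in both contrasts (6.91%). The 18 members with no Col array above 4 entered the test only through mutant arrays, so they had to be higher there: of these, 7 were called in aux1 ethylene and 16 in ein2 IAA, beside 34 and 46 of the other 54. Among the 18 were AT1G24430, AT2G18360, AT1G49960, QQS, AT3G22060, AT5G49350, AT2G43390, AT1G78990, AT1G63530 and AT2G01580. They also included 246067_at, 251944_at, 262414_at and 267144_at. The p-values given below for the 18 are not free of this selection. The median difference was 1.62 for aux1 minus Col in ethylene and 2.92 for ein2 minus Col in IAA, beside -0.01 over all probe sets tested in each. Each test sets 2 arrays against 2, with the spread taken from all 8 groups, and a ± below is the SE of that fit. That spread thus came in part from the untreated arrays that chose the members. A limma fit of the 8 treated arrays alone called 41 members higher in aux1 ethylene (0.969% of all probe sets) and 63 in ein2 IAA (3.55%). Leaving out 1 array at a time gave 29 to 46 calls for aux1 and 50 to 63 for ein2.

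The 2 contrasts were set against each other by testing their difference. In 36 members both were called (0.534% of all probe sets), in 26 that of ein2 was called and that of aux1 was not (3.33% of all, ein2 higher), in 5 that of aux1 was called and that of ein2 was not (0.463% of all, aux1 higher), and in 5 neither was (91.6% of all probe sets). The difference of the differences, aux1 minus Col in ethylene less ein2 minus Col in IAA, was called in 18 members, 17 below 0 (1.77% of all probe sets) and 1 above 0 (1.24%). Of the 17 below 0, 11 were among the 18 members with no Col array above 4 and 6 among the other 54. Of the 26 members called in ein2 and not in aux1, 12 had a called difference and 14 did not, so for these 14 the mutants are not shown to differ. The 5 called in aux1 and not in ein2 were AT5G12420, AT5G57785, QQS, 258217_at and 258218_at, and the 5 called in neither were AT2G43620, 258618_at, 258769_at, 261428_at and 266743_at. Among all 72, the difference was larger in ein2 IAA in 54 and larger in aux1 ethylene in 18. Hormone, genotype and experiment cannot be told apart in this contrast.

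**Figure D2:**
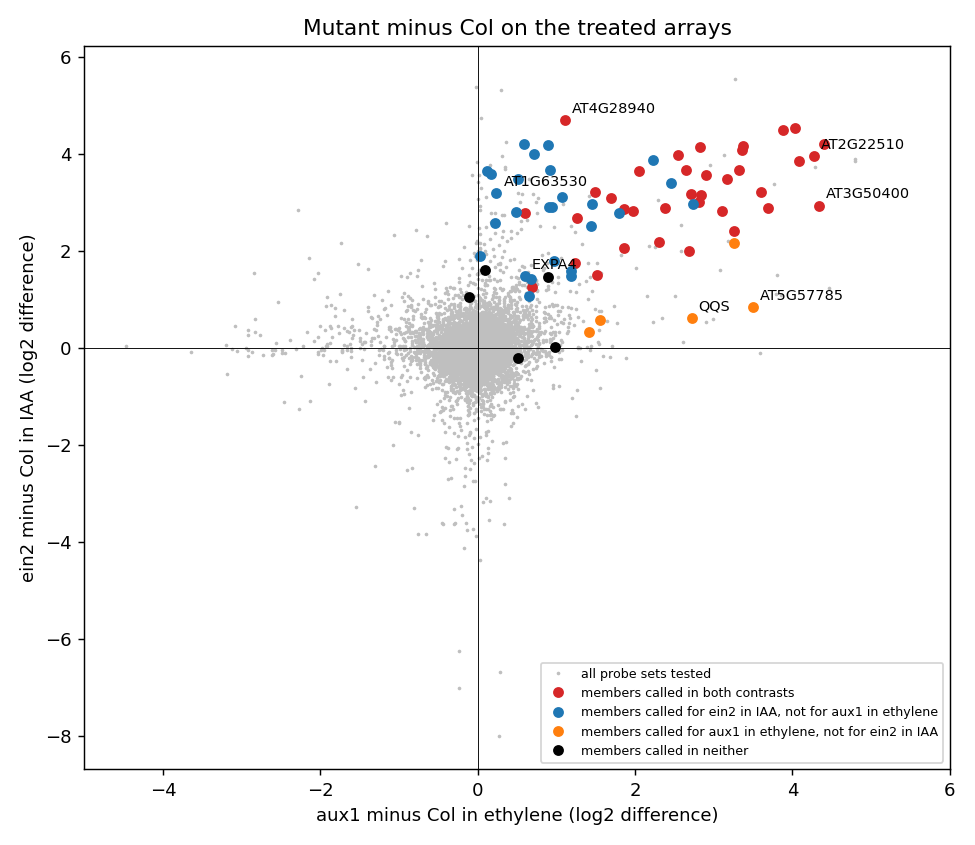
Each point is a probe set, placed by aux1 minus Col in ethylene (x axis) and ein2 minus Col in IAA (y axis), both log2 differences of group means of 2 arrays. Grey points are all 14244 probe sets tested and coloured points the 72 members: 36 called in both, 26 in ein2 IAA and not in aux1 ethylene, 5 in aux1 ethylene and not in ein2 IAA, and 5 in neither.

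Cell wall and extracellular proteins made up 6 of the 35 members with a locus: 4 were called higher in aux1 ethylene and all 6 in ein2 IAA. Counts per role group here and below stand beside 41 and 62 of all 72 members. Over all probe sets tested the shares were 1.01% and 3.95%. Role groups were small and were not tested as sets. AT2G22510, AT4G38080 and AT5G09480 encode hydroxyproline-rich glycoproteins of the wall. AT2G22510 read 7.98 and 8.57 in aux1 ethylene, against 4.08 and 3.92 in Col ethylene, and 8.60 and 8.98 in aux1 air, against 5.00 and 4.08 in Col air. For AT2G22510 the auxin experiment gave 9.86 and 9.36 in ein2 IAA, against 6.06 and 5.24 in Col IAA, and 9.67 and 9.49 in ein2 mock, against 4.67 and 5.65 in Col mock. AT2G22510 was higher in aux1 ethylene by 4.27 ± 0.39 (adjusted p = 0.000130) and in ein2 IAA by 3.96 ± 0.39 (adjusted p = 7.64e-05). Every mutant array lay above every Col array of its experiment for this gene. AT4G38080 read 10.92 and 11.32 in aux1 ethylene, against 8.18 and 7.40 in Col ethylene, and 10.86 and 11.77 in aux1 air, against 8.25 and 7.10 in Col air. For AT4G38080 the auxin experiment gave 12.49 and 12.15 in ein2 IAA, against 8.90 and 8.41 in Col IAA, and 12.11 and 12.15 in ein2 mock, against 7.72 and 8.75 in Col mock. AT4G38080 was higher in aux1 ethylene by 3.33 ± 0.44 (adjusted p = 0.00196) and in ein2 IAA by 3.66 ± 0.44 (adjusted p = 0.000362). The groups again did not overlap. AT5G09480 read 10.03 and 10.28 in aux1 ethylene, against 7.08 and 6.89 in Col ethylene, and 10.16 and 10.17 in aux1 air, against 6.60 and 6.25 in Col air. For AT5G09480 the auxin experiment gave 11.23 and 11.22 in ein2 IAA, against 7.81 and 7.68 in Col IAA, and 10.88 and 11.03 in ein2 mock, against 7.10 and 7.57 in Col mock. AT5G09480 was higher in aux1 ethylene by 3.17 ± 0.17 (adjusted p = 7.51e-06) and in ein2 IAA by 3.48 ± 0.17 (adjusted p = 1.75e-07). The SD of the 2 arrays of a group for this gene was highest in Col mock, at 0.33, and lowest in ein2 IAA, at 0.002.

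ARPN encodes plantacyanin, a small copper protein of the extracellular space. ARPN read 8.85 and 8.80 in aux1 ethylene, against 6.32 and 5.70 in Col ethylene, and 8.75 and 8.55 in aux1 air, against 5.17 and 4.88 in Col air. For ARPN the auxin experiment gave 10.68 and 10.12 in ein2 IAA, against 7.56 and 7.21 in Col IAA, and 10.18 and 9.78 in ein2 mock, against 7.39 and 7.49 in Col mock. ARPN was higher in aux1 ethylene by 2.81 ± 0.24 (adjusted p = 9.74e-05) and in ein2 IAA by 3.02 ± 0.24 (adjusted p = 1.28e-05). Mutant and Col arrays did not overlap for ARPN in either experiment. AT5G49350 encodes a glycine-rich protein and was near background in Col air, Col ethylene and Col mock. It was higher in ein2 IAA by 2.97 ± 0.35 (adjusted p = 0.000268), and its difference in aux1 ethylene was 1.45 ± 0.35 (adjusted p = 0.0640), which did not pass the threshold (adjusted p from 0.0126 to 0.289 over the alternatives). AT1G03820 encodes an E6-like protein and had another pattern. AT1G03820 read 3.58 and 4.53 in aux1 ethylene, against 3.96 and 4.09 in Col ethylene, and 7.21 and 7.70 in aux1 air, against 5.91 and 6.03 in Col air. For AT1G03820 the auxin experiment gave 10.27 and 10.72 in ein2 IAA, against 8.71 and 8.48 in Col IAA, and 9.37 and 9.47 in ein2 mock, against 6.23 and 5.70 in Col mock. AT1G03820 was higher in ein2 IAA by 1.90 ± 0.29 (adjusted p = 0.00171), whereas the aux1 and Col arrays overlapped in ethylene with a difference of 0.03 ± 0.29 (adjusted p = 0.993). That aux1 value became -0.03 without Col ethylene replicate 1 and -0.45 without aux1 ethylene replicate 2, so it has no settled sign. Its difference of the differences was -1.87 ± 0.41 (adjusted p = 0.0303). That call ended without Col ethylene replicate 1 or 2, aux1 ethylene replicate 1, Col IAA replicate 1 or 2 or ein2 IAA replicate 2, with no filter or in a fit of the treated arrays alone, and its adjusted p ran from 0.00600 to 0.125 over the alternatives.

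Of 4 wall-modifying proteins, 2 were called higher in aux1 ethylene and all 4 in ein2 IAA. AT5G55180 belongs to a family of glucan hydrolases. AT5G55180 read 10.09 and 10.08 in aux1 ethylene, against 8.36 and 8.10 in Col ethylene, and 10.09 and 10.12 in aux1 air, against 8.53 and 7.999 in Col air. For AT5G55180 the auxin experiment gave 11.15 and 11.17 in ein2 IAA, against 8.95 and 9.23 in Col IAA, and 11.17 and 11.31 in ein2 mock, against 9.12 and 9.36 in Col mock. AT5G55180 was higher in aux1 ethylene by 1.86 ± 0.17 (adjusted p = 0.000130) and in ein2 IAA by 2.07 ± 0.17 (adjusted p = 1.75e-05). No mutant array overlapped with Col for AT5G55180. AT2G43670, whose protein has a callose-binding type domain, was higher in aux1 ethylene by 1.69 ± 0.32 (adjusted p = 0.0198) and in ein2 IAA by 3.101 ± 0.32 (adjusted p = 0.000119). The aux1 call ended without Col ethylene replicate 2 or aux1 ethylene replicate 1 or 2, with no filter, in a fit of the treated arrays alone or in a fit of the ethylene arrays alone, and its adjusted p ran from 0.00381 to 0.133 over the alternatives.

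EXPA4 and EXPB3 encode an alpha- and a beta-expansin, wall-loosening proteins. EXPA4 read 7.04 and 7.99 in aux1 ethylene, against 7.04 and 6.79 in Col ethylene, and 9.10 and 10.09 in aux1 air, against 8.34 and 8.76 in Col air. For EXPA4 the auxin experiment gave 11.79 and 11.96 in ein2 IAA, against 10.59 and 10.16 in Col IAA, and 11.11 and 11.22 in ein2 mock, against 9.23 and 8.71 in Col mock. The mutant and Col arrays overlapped in ethylene for EXPA4 and were apart in the other 3 pairs of groups. EXPA4 was higher in ein2 IAA by 1.49 ± 0.35 (adjusted p = 0.0236), and its difference in aux1 ethylene, 0.60 ± 0.35 (adjusted p = 0.610), did not pass. The ein2 call for EXPA4 ended without Col IAA replicate 1 or 2 or ein2 IAA replicate 1 or 2 or with no filter, and its adjusted p ran from 0.00614 to 0.176 over the alternatives. EXPB3 read 5.46 and 3.17 in aux1 ethylene, against 3.68 and 3.07 in Col ethylene, and 6.93 and 6.42 in aux1 air, against 5.43 and 5.02 in Col air. For EXPB3 the auxin experiment gave 8.58 and 8.51 in ein2 IAA, against 5.97 and 5.29 in Col IAA, and 8.14 and 8.19 in ein2 mock, against 5.73 and 5.18 in Col mock. The 2 aux1 ethylene arrays were far apart for EXPB3, and 1 of them lay between the Col arrays. EXPB3 was higher in ein2 IAA by 2.91 ± 0.55 (adjusted p = 0.00737). This call for EXPB3 ended without Col IAA replicate 2, and its adjusted p ran from 0.000161 to 0.0775 over the alternatives. In ethylene its aux1 difference was 0.94 ± 0.55 (adjusted p = 0.617), and -0.21 without aux1 ethylene replicate 1. Without aux1 ethylene replicate 2 it was 2.09 (adjusted p = 0.0213) and passed.

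Lipid and acyl metabolism had 8 members: 7 were called higher in aux1 ethylene and 7 in ein2 IAA, beside 41 and 62 of all 72. AT4G24140 and AT2G18360 encode alpha/beta hydrolases. AT4G24140 read 5.57 and 6.43 in aux1 ethylene, against 3.45 and 2.90 in Col ethylene, and 6.42 and 6.95 in aux1 air, against 3.27 and 3.25 in Col air. For AT4G24140 the auxin experiment gave 8.66 and 8.45 in ein2 IAA, against 4.46 and 4.36 in Col IAA, and 8.32 and 8.51 in ein2 mock, against 3.57 and 4.70 in Col mock. AT4G24140 was higher in aux1 ethylene by 2.83 ± 0.35 (adjusted p = 0.00118) and in ein2 IAA by 4.14 ± 0.35 (adjusted p = 2.36e-05). Its Col arrays read low throughout, and every mutant array lay above them. AT2G18360 read 6.14 and 6.66 in aux1 ethylene, against 2.43 and 2.18 in Col ethylene, and 5.75 and 6.23 in aux1 air, against 1.96 and 1.75 in Col air. For AT2G18360 the auxin experiment gave 6.63 and 5.45 in ein2 IAA, against 2.40 and 1.98 in Col IAA, and 6.16 and 5.18 in ein2 mock, against 2.43 and 2.35 in Col mock. AT2G18360 was higher in aux1 ethylene by 4.09 ± 0.38 (adjusted p = 0.000149) and in ein2 IAA by 3.86 ± 0.38 (adjusted p = 8.02e-05). All 4 Col groups were near background for AT2G18360, so the size of these differences is limited by the Col side. AT2G18360 entered the test only through mutant arrays. On chromosome 2 it lies next to AT2G18370, one of the genes the rule left out, with 0 annotated genes between them.

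AT1G24430 and AT1G78990 encode BAHD-type acyltransferases. AT1G24430 read 4.96 and 5.66 in aux1 ethylene, against 2.79 and 2.75 in Col ethylene, and 5.74 and 5.84 in aux1 air, against 2.77 and 2.78 in Col air. For AT1G24430 the auxin experiment gave 7.04 and 6.46 in ein2 IAA, against 2.79 and 2.76 in Col IAA, and 6.17 and 6.45 in ein2 mock, against 2.85 and 2.76 in Col mock. AT1G24430 was higher in aux1 ethylene by 2.54 ± 0.22 (adjusted p = 0.000102) and in ein2 IAA by 3.98 ± 0.22 (adjusted p = 5.08e-07). Its 8 Col arrays were almost flat and its mutant arrays stood clear of them. No Col array was above 4, so this gene entered the test only through mutant arrays. AT1G24430 had a difference of the differences of -1.43 ± 0.31 (adjusted p = 0.0287), larger in ein2. This difference call ended without Col ethylene replicate 1 or 2, aux1 ethylene replicate 1, Col IAA replicate 1 or 2 or ein2 IAA replicate 1, with no filter or in a fit of the treated arrays alone, and its adjusted p ran from 0.00693 to 0.102 over the alternatives. AT1G78990 read 2.32 and 2.01 in aux1 ethylene, against 2.00 and 1.98 in Col ethylene, and 2.07 and 4.44 in aux1 air, against 2.00 and 2.02 in Col air. For AT1G78990 the auxin experiment gave 5.72 and 5.47 in ein2 IAA, against 2.00 and 2.00 in Col IAA, and 5.53 and 5.45 in ein2 mock, against 1.99 and 1.96 in Col mock. Only 1 of the aux1 arrays, replicate 2 in air, stood clear of background for AT1G78990, while all 4 ein2 arrays did. Without the ein2 arrays this gene would not have met the filter of 2 arrays above 4. AT1G78990 was higher in ein2 IAA by 3.60 ± 0.51 (adjusted p = 0.00110), its aux1 difference in ethylene was 0.17 ± 0.51 (adjusted p = 0.965), and the difference of the differences was -3.42 ± 0.72 (adjusted p = 0.0259). The last call ended without Col ethylene replicate 1 or 2, aux1 ethylene replicate 1 or 2, Col IAA replicate 1 or 2 or ein2 IAA replicate 1 or 2 or with no filter, and its adjusted p ran from 4.31e-06 to 0.0984 over the alternatives.

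AT3G50400 and AT1G74460 encode GDSL lipases, AT5G13900 a lipid-transfer type protein and AT5G12420 a wax ester synthase type acyltransferase. AT3G50400 read 6.80 and 6.95 in aux1 ethylene, against 2.67 and 2.40 in Col ethylene, and 7.30 and 7.64 in aux1 air, against 5.75 and 3.28 in Col air. For AT3G50400 the auxin experiment gave 9.47 and 9.42 in ein2 IAA, against 6.67 and 6.35 in Col IAA, and 9.30 and 8.99 in ein2 mock, against 5.84 and 5.87 in Col mock. AT3G50400 was higher in aux1 ethylene by 4.34 ± 0.54 (adjusted p = 0.00115) and in ein2 IAA by 2.94 ± 0.54 (adjusted p = 0.00604). The 2 Col air arrays of AT3G50400 were far apart, and its Col ethylene arrays were lower than both. The ein2 call for AT3G50400 ended without Col IAA replicate 2, and its adjusted p ran from 1.49e-06 to 0.0573 over the alternatives. Its aux1 call ended in a fit of the ethylene arrays alone, and its adjusted p ran from 2.34e-07 to 0.0505 over the alternatives. AT1G74460 was higher in aux1 ethylene by 2.90 ± 0.35 (adjusted p = 0.000950) and in ein2 IAA by 3.58 ± 0.35 (adjusted p = 7.64e-05). AT5G13900 was higher in aux1 ethylene by 2.31 ± 0.40 (adjusted p = 0.0117) and in ein2 IAA by 2.18 ± 0.40 (adjusted p = 0.00604). For AT5G13900 the aux1 call ended without Col ethylene replicate 2 or aux1 ethylene replicate 2 or in a fit of the ethylene arrays alone, and its adjusted p ran from 0.000521 to 0.124 over the alternatives. The ein2 call for AT5G13900 ended without Col IAA replicate 2 or ein2 IAA replicate 2, and its adjusted p ran from 0.000369 to 0.0688 over the alternatives. AT5G12420 was higher in aux1 ethylene by 3.25 ± 0.70 (adjusted p = 0.0371), and its ein2 difference in IAA was 2.17 ± 0.70 (adjusted p = 0.0959). That ein2 difference passed in limma fits of the treated arrays alone (adjusted p = 0.0199) and of the auxin arrays alone (adjusted p = 0.00328). The aux1 difference did not pass with no filter (adjusted p = 0.113) or in a fit of the ethylene arrays alone (adjusted p = 0.242). The aux1 call for AT5G12420 is borderline: it ended in 14 of 16 fits that each left out 1 array, the exceptions being Col air replicates 1 and 2, and its adjusted p ran from 0.000646 to 0.242 over the alternatives.

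Defence-type proteins, lectins and proteases gave 5 members, with 2 called higher in aux1 ethylene and 4 in ein2 IAA. AT2G03200 encodes an aspartyl protease and AT3G22060 a cysteine-rich repeat secretory protein. AT2G03200 read 7.998 and 8.11 in aux1 ethylene, against 6.13 and 6.03 in Col ethylene, and 8.24 and 8.55 in aux1 air, against 6.41 and 5.73 in Col air. For AT2G03200 the auxin experiment gave 9.25 and 8.99 in ein2 IAA, against 6.47 and 6.13 in Col IAA, and 8.86 and 9.01 in ein2 mock, against 6.39 and 6.69 in Col mock. AT2G03200 was higher in aux1 ethylene by 1.97 ± 0.21 (adjusted p = 0.000393) and in ein2 IAA by 2.82 ± 0.21 (adjusted p = 9.21e-06). Mutant and Col arrays were apart in all 4 pairs of groups. AT3G22060 read 3.61 and 3.69 in aux1 ethylene, against 2.98 and 3.12 in Col ethylene, and 4.56 and 4.57 in aux1 air, against 3.47 and 3.51 in Col air. For AT3G22060 the auxin experiment gave 5.79 and 5.89 in ein2 IAA, against 3.14 and 2.97 in Col IAA, and 5.40 and 5.11 in ein2 mock, against 3.13 and 2.94 in Col mock. AT3G22060 was higher in aux1 ethylene by 0.60 ± 0.12 (adjusted p = 0.0267) and in ein2 IAA by 2.78 ± 0.12 (adjusted p = 8.04e-08). The ein2 difference was the larger for AT3G22060, with a difference of the differences of -2.18 ± 0.17 (adjusted p = 2.68e-05). AT3G22060 had no Col array above 4 and entered the test only through mutant arrays. Its aux1 difference was small: the call ended without Col ethylene replicate 1 or 2 or aux1 ethylene replicate 1 or 2, with an intensity trend, in a fit of the treated arrays alone or in a fit of the ethylene arrays alone, and its adjusted p ran from 0.0128 to 0.216 over the alternatives.

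ChiC and AT2G43620 encode chitinase-type proteins and JAL22 a jacalin-type lectin, which binds sugars. ChiC was higher in ein2 IAA by 1.49 ± 0.37 (adjusted p = 0.0304). This call for ChiC ended without Col IAA replicate 1 or 2 or ein2 IAA replicate 1 or 2 or with no filter, and its adjusted p ran from 0.00324 to 0.219 over the alternatives. Its aux1 difference in ethylene was 1.19 ± 0.37 (adjusted p = 0.171). JAL22 was higher in ein2 IAA by 1.59 ± 0.27 (adjusted p = 0.00369), and its aux1 difference of 1.18 ± 0.27 (adjusted p = 0.0524) did not pass, with an adjusted p from 0.00541 to 0.217 over the alternatives. AT2G43620 was called in neither contrast, at 0.89 ± 0.60 (adjusted p = 0.699) for aux1 and 1.48 ± 0.60 (adjusted p = 0.199) for ein2. AT2G43620 and AT2G43670 lie close together on chromosome 2, with 4 annotated genes between them.

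Of 5 members in transport, signalling and metabolism, 3 were called higher in aux1 ethylene and 4 in ein2 IAA. AT1G49960 belongs to the nucleobase permease family of membrane carriers, and AT4G28940 to a phosphorylase family. AT1G49960 read 6.20 and 6.73 in aux1 ethylene, against 3.46 and 2.73 in Col ethylene, and 6.66 and 7.21 in aux1 air, against 3.51 and 3.12 in Col air. For AT1G49960 the auxin experiment gave 7.93 and 7.47 in ein2 IAA, against 3.55 and 3.51 in Col IAA, and 8.02 and 7.58 in ein2 mock, against 2.73 and 3.94 in Col mock. AT1G49960 was higher in aux1 ethylene by 3.37 ± 0.38 (adjusted p = 0.000554) and in ein2 IAA by 4.17 ± 0.38 (adjusted p = 4.25e-05). Both mutants stood clear of Col for AT1G49960 with and without hormone, but it had no Col array above 4 and entered the test only through mutant arrays. AT4G28940 read 5.83 and 5.60 in aux1 ethylene, against 4.62 and 4.59 in Col ethylene, and 6.29 and 6.47 in aux1 air, against 4.95 and 5.06 in Col air. For AT4G28940 the auxin experiment gave 9.36 and 9.57 in ein2 IAA, against 4.59 and 4.93 in Col IAA, and 9.36 and 9.86 in ein2 mock, against 4.99 and 5.03 in Col mock. AT4G28940 was higher in aux1 ethylene by 1.11 ± 0.17 (adjusted p = 0.00565) and in ein2 IAA by 4.71 ± 0.17 (adjusted p = 3.82e-08). For AT4G28940 the 4 ein2 arrays lay far above all others, and the difference of the differences was -3.60 ± 0.24 (adjusted p = 8.27e-06). AT5G66815 encodes the precursor of a small signalling peptide. AT5G66815 read 2.60 and 3.03 in aux1 ethylene, against 2.60 and 2.59 in Col ethylene, and 4.06 and 4.51 in aux1 air, against 3.07 and 3.18 in Col air. For AT5G66815 the auxin experiment gave 5.53 and 5.28 in ein2 IAA, against 3.07 and 2.60 in Col IAA, and 6.75 and 5.72 in ein2 mock, against 4.14 and 3.26 in Col mock. AT5G66815 was higher in ein2 IAA by 2.57 ± 0.34 (adjusted p = 0.000721), and in ethylene, where Col and aux1 were both low, the aux1 difference was 0.22 ± 0.34 (adjusted p = 0.915). Its difference of the differences was -2.35 ± 0.48 (adjusted p = 0.0232). That call for AT5G66815 ended without Col ethylene replicate 1 or 2, aux1 ethylene replicate 1, Col IAA replicate 2 or ein2 IAA replicate 1 or 2 or with no filter, and its adjusted p ran from 0.000952 to 0.0947 over the alternatives.

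QQS, a gene that affects how leaves divide carbon and nitrogen between starch and protein, was one of 5 members called in aux1 and not in ein2. QQS read 5.51 and 4.91 in aux1 ethylene, against 2.50 and 2.49 in Col ethylene, and 5.32 and 5.24 in aux1 air, against 2.44 and 2.57 in Col air. For QQS the auxin experiment gave 3.56 and 2.71 in ein2 IAA, against 2.50 and 2.50 in Col IAA, and 2.75 and 4.78 in ein2 mock, against 2.50 and 2.45 in Col mock. All 4 aux1 arrays stood above Col for QQS, the Col arrays were near background, and the ein2 arrays were spread out. It thus entered the test only through mutant arrays. QQS was higher in aux1 ethylene by 2.72 ± 0.49 (adjusted p = 0.0141), its ein2 difference in IAA was 0.63 ± 0.49 (adjusted p = 0.565), and the difference of the differences, 2.09 ± 0.69 (adjusted p = 0.155), was not called. The aux1 call for QQS ended without Col ethylene replicate 1 or 2 or aux1 ethylene replicate 1 or 2 or with no filter, and its adjusted p ran from 0.000350 to 0.0964 over the alternatives. AILP1 encodes an aluminium-induced type protein and was higher in ein2 IAA by 1.43 ± 0.23 (adjusted p = 0.00254), beside an aux1 difference in ethylene of 0.67 ± 0.23 (adjusted p = 0.234) that did not pass (adjusted p from 0.0389 to 0.723 over the alternatives).

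No role is stated here for 7 members, of which 4 were called higher in aux1 ethylene and 6 in ein2 IAA. AT2G47200 read 7.13 and 6.98 in aux1 ethylene, against 4.15 and 3.23 in Col ethylene, and 7.66 and 7.38 in aux1 air, against 3.80 and 3.498 in Col air. For AT2G47200 the auxin experiment gave 8.82 and 8.73 in ein2 IAA, against 4.91 and 4.48 in Col IAA, and 8.60 and 8.53 in ein2 mock, against 3.65 and 4.60 in Col mock. AT2G47200 was higher in aux1 ethylene by 3.36 ± 0.32 (adjusted p = 0.000161) and in ein2 IAA by 4.08 ± 0.32 (adjusted p = 1.26e-05). AT2G47200 was high on all mutant arrays and low on all Col arrays. AT1G65500 read 6.45 and 7.18 in aux1 ethylene, against 2.81 and 3.45 in Col ethylene, and 6.52 and 7.49 in aux1 air, against 3.60 and 3.25 in Col air. For AT1G65500 the auxin experiment gave 7.11 and 6.57 in ein2 IAA, against 4.05 and 3.87 in Col IAA, and 6.85 and 6.89 in ein2 mock, against 4.27 and 4.00 in Col mock. AT1G65500 was higher in aux1 ethylene by 3.69 ± 0.34 (adjusted p = 0.000130) and in ein2 IAA by 2.88 ± 0.34 (adjusted p = 0.000261). AT1G65500 had no overlap in any pair of groups either. AT1G56320 was higher in aux1 ethylene by 2.71 ± 0.34 (adjusted p = 0.00127) and in ein2 IAA by 3.18 ± 0.34 (adjusted p = 0.000156). AT2G43390 was higher in ein2 IAA by 3.11 ± 0.43 (adjusted p = 0.000925), beside 1.08 ± 0.43 (adjusted p = 0.347) in aux1 ethylene, which did not pass.

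AT1G63530 and AT2G01580 stood near background on all Col arrays and on or just above it in aux1 ethylene. AT1G63530 read 2.66 and 2.69 in aux1 ethylene, against 2.45 and 2.43 in Col ethylene, and 3.61 and 3.58 in aux1 air, against 2.43 and 2.55 in Col air. For AT1G63530 the auxin experiment gave 5.76 and 5.63 in ein2 IAA, against 2.45 and 2.54 in Col IAA, and 5.70 and 5.42 in ein2 mock, against 2.48 and 2.45 in Col mock. AT1G63530 was higher in ein2 IAA by 3.20 ± 0.11 (adjusted p = 3.17e-08), its aux1 difference in ethylene was 0.24 ± 0.11 (adjusted p = 0.454), and the difference of the differences was -2.96 ± 0.15 (adjusted p = 2.82e-06). AT2G01580 read 2.50 and 2.68 in aux1 ethylene, against 2.05 and 2.16 in Col ethylene, and 3.77 and 3.55 in aux1 air, against 2.16 and 2.24 in Col air. For AT2G01580 the auxin experiment gave 5.28 and 4.79 in ein2 IAA, against 2.27 and 2.21 in Col IAA, and 4.51 and 4.96 in ein2 mock, against 2.39 and 2.43 in Col mock. AT2G01580 was higher in ein2 IAA by 2.80 ± 0.18 (adjusted p = 1.57e-06), its aux1 difference in ethylene was 0.49 ± 0.18 (adjusted p = 0.274), and the difference of the differences was -2.31 ± 0.25 (adjusted p = 0.000345). The ein2 arrays stood clear for both genes. No other array of either gene was above 4, so both entered the test through ein2 alone and had to be high there. AT5G57785 was the member whose difference of the differences was called above 0. AT5G57785 read 6.12 and 6.19 in aux1 ethylene, against 2.58 and 2.74 in Col ethylene, and 7.505 and 7.01 in aux1 air, against 5.57 and 4.60 in Col air. For AT5G57785 the auxin experiment gave 6.28 and 7.18 in ein2 IAA, against 6.23 and 5.54 in Col IAA, and 7.503 and 7.54 in ein2 mock, against 6.52 and 6.04 in Col mock. AT5G57785 was higher in aux1 ethylene by 3.49 ± 0.36 (adjusted p = 0.000272), its ein2 difference in IAA was 0.84 ± 0.36 (adjusted p = 0.217), and the difference of the differences was 2.65 ± 0.50 (adjusted p = 0.0150). This last call ended without Col ethylene replicate 1, aux1 ethylene replicate 2 or Col IAA replicate 1, and its adjusted p ran from 0.00657 to 0.0673 over the alternatives.

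**Figure D3:**
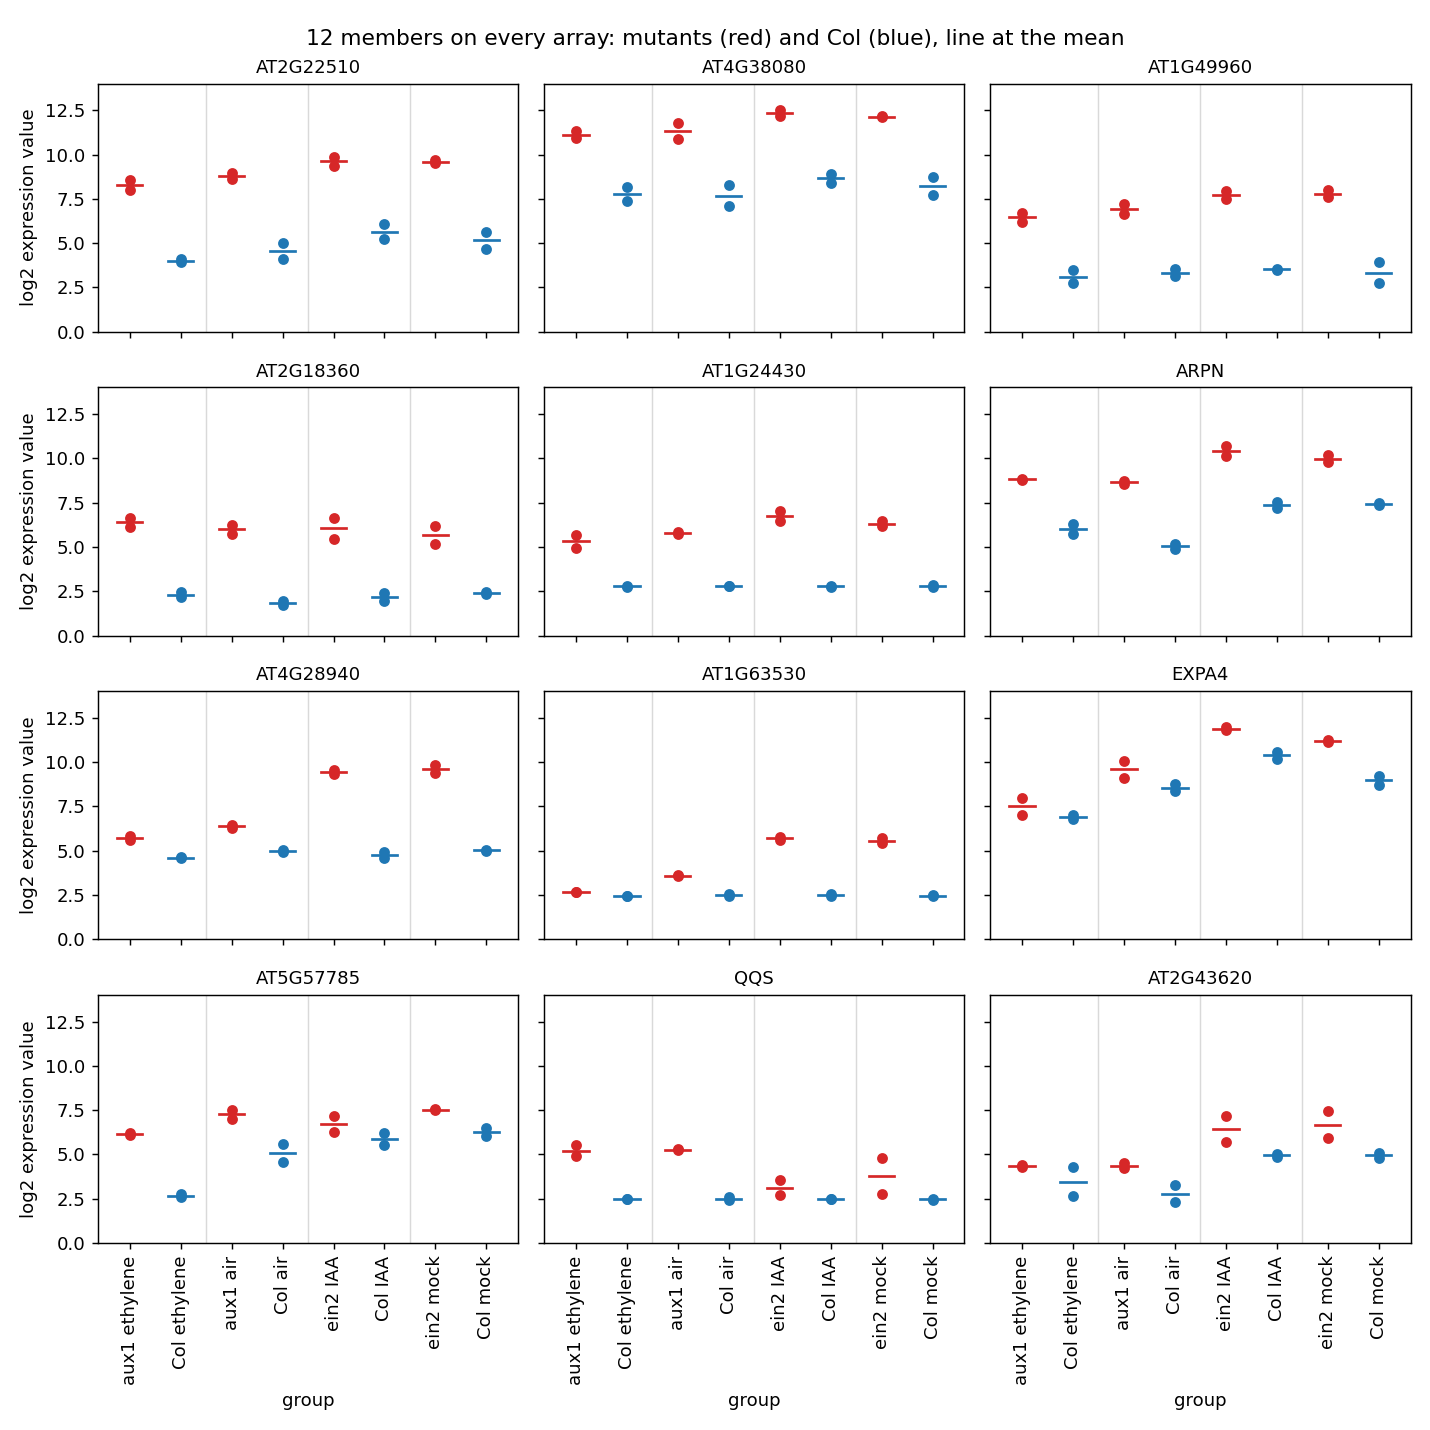
Log2 expression values of 12 members on each array, 1 panel a gene, with mutants in red, Col in blue and a line at the mean of the 2 arrays of a group. Mutant points lie above the Col points of the same treatment in most panels, EXPA4 overlaps in ethylene, AT4G28940 and AT1G63530 are highest in ein2, and QQS is highest in aux1.

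The 37 members given by probe set ID had medians of 1.49 for aux1 minus Col in ethylene and 2.90 for ein2 minus Col in IAA, beside 1.97 and 2.94 for the 35 with a locus. Of these 37, 17 were called in both contrasts, 14 in ein2 IAA and not in aux1 ethylene, 2 in aux1 ethylene and not in ein2 IAA, and 4 in neither. 249061_at read 8.88 and 9.07 in aux1 ethylene, against 5.21 and 4.68 in Col ethylene, and 8.90 and 9.58 in aux1 air, against 4.95 and 4.02 in Col air. For 249061_at the auxin experiment gave 11.45 and 11.001 in ein2 IAA, against 7.21 and 6.18 in Col IAA, and 10.86 and 10.97 in ein2 mock, against 5.18 and 6.24 in Col mock. 249061_at was higher in aux1 ethylene by 4.03 ± 0.43 (adjusted p = 0.000363) and in ein2 IAA by 4.53 ± 0.43 (adjusted p = 5.76e-05). It has the largest of the smaller untreated differences among the 72 members, and its mutant arrays stood far above Col. 259987_at read 8.64 and 8.74 in aux1 ethylene, against 5.38 and 4.23 in Col ethylene, and 8.15 and 8.63 in aux1 air, against 4.61 and 3.81 in Col air. For 259987_at the auxin experiment gave 9.78 and 9.31 in ein2 IAA, against 4.90 and 5.20 in Col IAA, and 9.32 and 9.38 in ein2 mock, against 4.77 and 5.44 in Col mock. 259987_at was higher in aux1 ethylene by 3.89 ± 0.37 (adjusted p = 0.000161) and in ein2 IAA by 4.49 ± 0.37 (adjusted p = 1.75e-05). The same separation held for 259987_at. 258905_at read 8.99 and 9.60 in aux1 ethylene, against 6.39 and 5.98 in Col ethylene, and 9.30 and 9.78 in aux1 air, against 6.48 and 5.89 in Col air. For 258905_at the auxin experiment gave 10.15 and 10.00 in ein2 IAA, against 7.42 and 7.07 in Col IAA, and 9.59 and 9.81 in ein2 mock, against 6.41 and 7.00 in Col mock. 258905_at was higher in aux1 ethylene by 3.11 ± 0.28 (adjusted p = 0.000130) and in ein2 IAA by 2.84 ± 0.28 (adjusted p = 8.61e-05). No array overlapped for 258905_at.

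In 247765_at the Col side was uneven, and in 262406_at it was near background in the ethylene experiment. 247765_at read 9.42 and 9.37 in aux1 ethylene, against 6.01 and 3.99 in Col ethylene, and 9.90 and 9.68 in aux1 air, against 6.22 and 3.00 in Col air. For 247765_at the auxin experiment gave 11.12 and 11.004 in ein2 IAA, against 7.32 and 6.39 in Col IAA, and 10.97 and 11.06 in ein2 mock, against 5.997 and 7.20 in Col mock. 247765_at was higher in aux1 ethylene by 4.40 ± 0.86 (adjusted p = 0.0234) and in ein2 IAA by 4.20 ± 0.86 (adjusted p = 0.0120). Its Col arrays were spread over more than 1 log2 unit in the ethylene experiment. The aux1 call for 247765_at ended without Col ethylene replicate 2 or aux1 ethylene replicate 1 or 2, with no filter or in a fit of the ethylene arrays alone, and its adjusted p ran from 0.00136 to 0.173 over the alternatives. For 247765_at the ein2 call ended without Col IAA replicate 2 or ein2 IAA replicate 1 or 2, and its adjusted p ran from 0.000905 to 0.106 over the alternatives. 262406_at read 5.04 and 5.47 in aux1 ethylene, against 1.99 and 1.99 in Col ethylene, and 5.45 and 6.02 in aux1 air, against 1.98 and 1.94 in Col air. For 262406_at the auxin experiment gave 7.15 and 7.48 in ein2 IAA, against 4.83 and 4.97 in Col IAA, and 6.43 and 6.48 in ein2 mock, against 2.38 and 3.73 in Col mock. 262406_at was higher in aux1 ethylene by 3.26 ± 0.34 (adjusted p = 0.000306) and in ein2 IAA by 2.42 ± 0.34 (adjusted p = 0.00104). Col arrays of 262406_at read higher with IAA than with mock. 254474_at read 10.53 and 10.69 in aux1 ethylene, against 8.42 and 7.52 in Col ethylene, and 10.77 and 11.19 in aux1 air, against 7.92 and 7.32 in Col air. For 254474_at the auxin experiment gave 12.06 and 11.74 in ein2 IAA, against 8.50 and 7.97 in Col IAA, and 11.70 and 11.89 in ein2 mock, against 7.69 and 8.24 in Col mock. 254474_at was higher in aux1 ethylene by 2.64 ± 0.31 (adjusted p = 0.000837) and in ein2 IAA by 3.67 ± 0.31 (adjusted p = 2.44e-05). Mutant and Col arrays of 254474_at were apart in all 4 pairs of groups.

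In 9 probe sets without a locus the ein2 difference was the larger, as tested by the difference of the differences, and 5 of them are given in full. 267144_at read 2.70 and 2.61 in aux1 ethylene, against 2.04 and 2.07 in Col ethylene, and 4.43 and 4.42 in aux1 air, against 2.11 and 2.08 in Col air. For 267144_at the auxin experiment gave 6.45 and 6.37 in ein2 IAA, against 2.30 and 2.09 in Col IAA, and 6.05 and 5.46 in ein2 mock, against 2.04 and 2.36 in Col mock. 267144_at was higher in ein2 IAA by 4.22 ± 0.17 (adjusted p = 5.05e-08), with an aux1 difference in ethylene of 0.60 ± 0.17 (adjusted p = 0.138) and a difference of the differences of -3.62 ± 0.24 (adjusted p = 8.27e-06). Its Col arrays were near background throughout. 246067_at read 2.17 and 2.19 in aux1 ethylene, against 2.06 and 2.04 in Col ethylene, and 3.27 and 3.78 in aux1 air, against 2.15 and 2.02 in Col air. For 246067_at the auxin experiment gave 5.93 and 5.62 in ein2 IAA, against 2.17 and 2.09 in Col IAA, and 5.11 and 5.14 in ein2 mock, against 2.05 and 2.14 in Col mock. 246067_at was higher in ein2 IAA by 3.64 ± 0.15 (adjusted p = 6.13e-08), with an aux1 difference in ethylene of 0.13 ± 0.15 (adjusted p = 0.879) and a difference of the differences of -3.52 ± 0.22 (adjusted p = 4.26e-06). Col was near background here too, as were the aux1 ethylene arrays. Only ein2 arrays of 246067_at were above 4, so it entered the test through ein2 alone and had to be high there. 251944_at read 2.59 and 2.76 in aux1 ethylene, against 2.17 and 2.16 in Col ethylene, and 4.10 and 4.27 in aux1 air, against 2.46 and 2.47 in Col air. For 251944_at the auxin experiment gave 6.59 and 6.07 in ein2 IAA, against 2.92 and 2.76 in Col IAA, and 5.54 and 6.22 in ein2 mock, against 2.37 and 2.29 in Col mock. 251944_at was higher in ein2 IAA by 3.49 ± 0.21 (adjusted p = 9.97e-07), with an aux1 difference in ethylene of 0.51 ± 0.21 (adjusted p = 0.364) and a difference of the differences of -2.98 ± 0.29 (adjusted p = 0.000165). The ein2 arrays were the highest of the 16 for 251944_at.

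262414_at read 4.35 and 4.22 in aux1 ethylene, against 3.40 and 3.33 in Col ethylene, and 4.68 and 5.60 in aux1 air, against 3.31 and 3.43 in Col air. For 262414_at the auxin experiment gave 7.32 and 6.77 in ein2 IAA, against 3.40 and 3.35 in Col IAA, and 7.01 and 6.92 in ein2 mock, against 3.39 and 3.31 in Col mock. 262414_at was higher in ein2 IAA by 3.67 ± 0.24 (adjusted p = 2.82e-06), with an aux1 difference in ethylene of 0.92 ± 0.24 (adjusted p = 0.100) and a difference of the differences of -2.75 ± 0.35 (adjusted p = 0.00117). For 262414_at the aux1 arrays lay above Col in ethylene, by much less than ein2 did in IAA. 263825_at read 6.82 and 6.62 in aux1 ethylene, against 4.78 and 4.58 in Col ethylene, and 6.77 and 7.02 in aux1 air, against 5.14 and 4.75 in Col air. For 263825_at the auxin experiment gave 8.56 and 8.41 in ein2 IAA, against 4.91 and 4.78 in Col IAA, and 8.64 and 8.88 in ein2 mock, against 4.77 and 5.33 in Col mock. 263825_at was higher in ein2 IAA by 3.65 ± 0.19 (adjusted p = 4.35e-07), with an aux1 difference in ethylene of 2.04 ± 0.19 (adjusted p = 0.000161) and a difference of the differences of -1.60 ± 0.27 (adjusted p = 0.00828). For 263825_at both mutants stood clear of Col, ein2 by more. The same test was called for 245928_s_at, 249684_s_at, 257718_at and 260599_at, with differences of the differences from -3.29 to -1.73. For 260599_at that call ended without Col ethylene replicate 1, aux1 ethylene replicate 1, Col IAA replicate 2 or ein2 IAA replicate 2, with no filter or in a fit of the treated arrays alone, and its adjusted p ran from 0.0148 to 0.103 over the alternatives. For 245928_s_at it ended in a fit of the treated arrays alone, and its adjusted p ran from 0.00346 to 0.0571 over the alternatives. Probe sets whose ID ends in _s_at, 2 of the members, can match more than 1 gene of a family.

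Most members differed by less than a factor of 2 between hormone and control: the median effect was -0.51 for ethylene minus air in aux1, -0.09 for ethylene minus air in Col, 0.14 for IAA minus mock in ein2 and 0.18 for IAA minus mock in Col. These effects use the untreated arrays that chose the members, so they are described without a test. Members were chosen as lower in untreated Col than in the untreated mutants. That choice by itself pushes the effects up in Col and down in the mutants. A lower effect in a mutant than in Col therefore cannot be told apart from the choice of members. A member was counted where the means differed by at least 1 and the treated arrays did not overlap with the untreated ones. With ethylene, 16 members were lower in aux1 (1.57% of all probe sets tested) and 9 in Col (2.11%), and 1 was higher in aux1 (2.06%) and 1 in Col (2.35%). With IAA, 4 were higher in ein2 (1.32%) and 6 in Col (1.72%), and 1 was lower in ein2 (0.583%) and 0 in Col (1.02%). The counts in Col ethylene depend on single arrays: 17 were lower without Col air replicate 2 and 14 without Col ethylene replicate 1, and 5 were higher without Col air replicate 1, 4 without Col ethylene replicate 2 and 0 without Col air replicate 2. In Col, 2 members were lower with IAA when replicate 2 of Col mock or replicate 1 of Col IAA was left out, and in ein2, 3 were lower without ein2 mock replicate 1, ein2 mock replicate 2 or ein2 IAA replicate 1 and 2 without ein2 IAA replicate 2.

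The members lower with ethylene in both genotypes were the expansins EXPA4 and EXPB3, AT1G03820, AT5G13900, AT5G57785, 252639_at and 258769_at. AT1G03820 had an effect of -3.40 in aux1 and -1.95 in Col, EXPA4 of -2.07 in aux1 and -1.63 in Col, and EXPB3 of -2.36 in aux1 and -1.85 in Col. In each case all ethylene arrays were under the air arrays of the same genotype, as the count requires. AT5G57785 had an effect of -1.10 in aux1 and -2.43 in Col, and AT5G13900 of -1.39 in aux1 and -2.32 in Col. AT3G50400 was lower in Col (-1.98) and had an effect of -0.60 in aux1, and AT2G43670 was lower in aux1 (-1.28) and had an effect of -0.05 in Col. AT5G66815 and AT2G01580 were lower in aux1, with differences of -1.47 and -1.07, and their Col arrays were already low in air. The remaining 6 lower in aux1 and 1 in Col are probe sets without a locus. ChiC was the member higher with ethylene in both genotypes: it read 7.47 and 7.68 in aux1 ethylene, against 6.28 and 5.96 in aux1 air, and 6.71 and 6.07 in Col ethylene, against 5.68 and 4.34 in Col air.

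AT1G03820, 252638_at, 258618_at and 258769_at were higher with IAA in both genotypes, and EXPA4 and 262406_at in Col. 258769_at read 9.45 and 9.04 in ein2 IAA, against 3.96 and 4.99 in ein2 mock, and 9.19 and 9.24 in Col IAA, against 3.27 and 2.68 in Col mock. 258618_at read 9.17 and 9.33 in ein2 IAA, against 5.45 and 5.66 in ein2 mock, and 9.36 and 9.52 in Col IAA, against 4.22 and 4.20 in Col mock. In both probe sets the mutant and Col arrays came together on IAA, far above mock. The ein2 difference in IAA was 0.03 ± 0.29 (adjusted p = 0.974) for 258769_at, and -0.17 without ein2 IAA replicate 1, and -0.19 ± 0.29 (adjusted p = 0.808) for 258618_at. On the ethylene arrays 258769_at read 3.36 and 3.36 in aux1 ethylene, against 4.83 and 4.79 in aux1 air, and 2.41 and 2.34 in Col ethylene, against 3.35 and 3.70 in Col air, so its ethylene and IAA differences had opposite signs. 258618_at read 4.60 and 4.60 in aux1 ethylene, against 6.49 and 5.98 in aux1 air, and 3.85 and 4.32 in Col ethylene, against 4.41 and 5.48 in Col air. 252638_at read 6.05 and 6.81 in aux1 ethylene, against 3.46 and 4.02 in Col ethylene, and 6.79 and 7.12 in aux1 air, against 5.12 and 4.74 in Col air. For 252638_at the auxin experiment gave 9.003 and 9.05 in ein2 IAA, against 7.07 and 6.98 in Col IAA, and 7.92 and 8.05 in ein2 mock, against 5.27 and 5.33 in Col mock. 252638_at was higher in aux1 ethylene by 2.69 ± 0.24 (adjusted p = 0.000128) and in ein2 IAA by 2.00 ± 0.24 (adjusted p = 0.000346). 252638_at was thus higher with IAA in both genotypes, and higher in ein2 than in Col. EXPA4 had an IAA effect of 0.71 in ein2 and 1.41 in Col, and AT1G03820 of 1.08 in ein2 and 2.63 in Col, and whether the effects differ between genotypes was not tested.

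**Figure D4:**
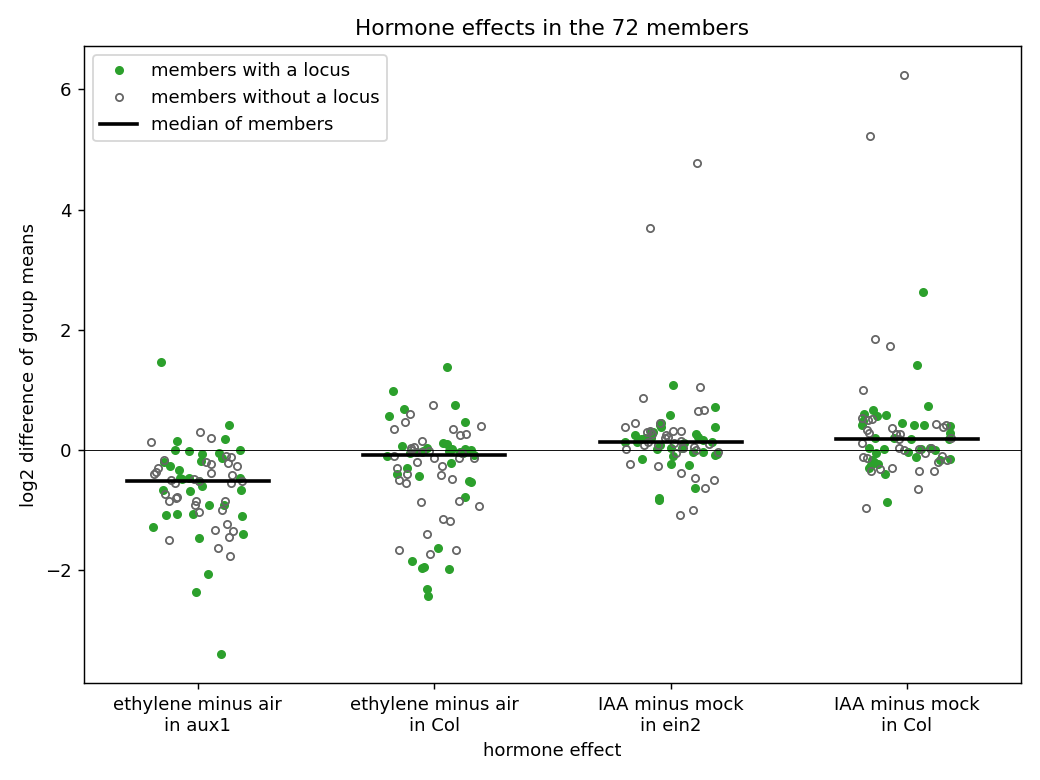
Each point is a member, placed by its log2 difference of group means for ethylene minus air in aux1 and Col and for IAA minus mock in ein2 and Col. Filled points have a locus, open points do not, and the line is the median of the 72 members, at -0.51, -0.09, 0.14 and 0.18. Most points lie within 1 of 0, and 258618_at and 258769_at stand highest in both IAA columns.

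Hormone response genes outside the members were looked at on the same arrays, from lists of auxin response, ethylene response and suberin genes. Of 22 auxin response genes, 6 had a named probe set that was tested. In aux1 ethylene, limma called 0 of the 6 (2 higher at an unadjusted p under 0.05), and in ein2 IAA 1 of them, PUCHI, a transcription factor of lateral root formation, was higher, at 1.80 ± 0.27 (adjusted p = 0.00153). GH3.3, an enzyme that conjugates auxin to amino acids, averaged 13.70 in ein2 IAA and 13.56 in Col IAA, against 8.39 in ein2 mock and 7.54 in Col mock. In the ethylene experiment GH3.3 averaged 8.61 in aux1 ethylene and 6.01 in Col ethylene, against 8.47 in aux1 air and 7.74 in Col air. Its aux1 difference in ethylene, 2.61 ± 0.75, did not pass in limma (adjusted p = 0.141). Of 17 ethylene response genes, 2 were tested, RTE1, a regulator of the ethylene receptor, and ARL, a gene named for organ size. In aux1 ethylene limma called 0 of the 2 (0 at an unadjusted p under 0.05), and in ein2 IAA both were lower, RTE1 at -1.19 ± 0.18 (adjusted p = 0.00155) and ARL at -3.63 ± 0.35 (adjusted p = 6.84e-05). Without IAA the differences were much the same: ein2 minus Col in mock was -1.19 for RTE1 and -3.55 for ARL. Of 14 suberin genes only FACT had a named probe set, and the rule left it out, so the suberin pathway cannot be described from named members. No tested gene of these lists was a member.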

How the data were processed

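Total RNA of 16 root samples was hybridised to Affymetrix arrays, per the labels. The deposited values are GCRMA expression values on a log2 scale for 22810 probe sets, per the submitters' processing notes and the range of the values (1.24 to 15.40); GCRMA's version, its settings and the arrays normalized together are not given in the sources used here. The values were used as deposited, without the 64 control probe sets, and 14244 probe sets above 4 in at least 2 arrays were kept. There is no count depth; the number of arrays limits the precision.

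Means of 8 groups were fitted on all 16 arrays with limma 3.58.1 in R 4.3.3 (8 residual degrees of freedom), two-sided, with Benjamini-Hochberg adjustment over all probe sets tested and a call at adjusted p under 0.05. The procedure was tested on simulated data. Only contrasts on treated arrays were tested. Genes were named from the platform annotation, which gave 1 locus for 13415 probe sets, several genes for 503 and no entry for 8730. Members, roles and lists were chosen with earlier results of these data known. Every member with a locus is named; all 16 values are printed for the members with the largest untreated differences or the smallest adjusted p of a treated contrast, for 14 of the 18 with a called difference of the differences, and for members with a role worth comparing, some chosen after their values were seen. No sequences are printed and promoter motifs were not analysed here.

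Alternatives were median centring, quantile normalization, other filters and limits, an intensity trend, fits of fewer arrays, the replicate number as a block and leaving out each array. Leaving out _s_at probe sets, and the hormone effects without each array, were chosen after seeing the data.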

Additional observations from a re-analysis of the deposited data

Results flagged for a closer look

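In 18 members the mutant-minus-Col difference on treated arrays differed between the experiments by the limma test of the difference itself (aux1 minus Col in ethylene, less ein2 minus Col in IAA), and no explanation was tested. The value was above 0 for AT5G57785, at 2.65. It was below 0, the ein2 difference being the larger, in the other 17. Of these 17, 11 had no Col array above 4 and entered the test only through mutant arrays. Among them, AT1G63530, AT2G01580 and 246067_at were above 4 on ein2 arrays only, which by itself favours a larger ein2 difference. The same holds for AT1G78990, which besides ein2 was above 4 on aux1 air replicate 2 only and so met the filter through ein2. Among those of the 17 with a locus the value was -3.60 for AT4G28940, -3.42 for AT1G78990, -2.96 for AT1G63530, -2.35 for AT5G66815, -2.31 for AT2G01580, -2.18 for AT3G22060, -1.87 for AT1G03820, -1.43 for AT1G24430. Among probe sets without a locus it was -3.62 for 267144_at, -3.52 for 246067_at, -3.29 for 249684_s_at, -3.29 for 245928_s_at, -2.98 for 251944_at, -2.75 for 262414_at, -2.02 for 257718_at, -1.73 for 260599_at, -1.60 for 263825_at. Of the 18 calls, 11 held under each alternative that tested them (22 or 23), and 7 (AT5G66815, AT1G78990, AT1G24430, AT1G03820, AT5G57785, 260599_at and 245928_s_at) were lost under at least 1.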

How the results depend on the processing

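No count of called members in either treated contrast moved by over 1.5 times under any alternative run. Called members were 30 to 48 in aux1 ethylene and 54 to 64 in ein2 IAA with all arrays in the fit or 1 experiment alone. Over all probe sets tested, the shares called higher under the same settings were 0.428% to 1.78% and 2.40% to 5.63%. Of the 41 and 62 calls, 27 and 50 held under each alternative that tested them (23 or 24). The difference of the differences gave 18 calls (3.00% of all probe sets tested), and 11 with a filter above 6 (2.85%), which leaves fewer probe sets. Leaving out 1 array gave 69 to 104 members, and a limit of 1.5 gave 41.

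Hormone counts are small and move easily, and the shares over all probe sets are not given for the settings below. A limit of 0.8 gave 2 higher with ethylene in Col, 2 lower with IAA in Col and 3 lower with IAA in ein2. A limit of 1.5 gave 0 higher with ethylene in aux1 or in Col, 6 lower with ethylene in aux1, and 2 higher and 0 lower with IAA in ein2. Quantile normalization gave 1 lower with IAA in Col, and median centring 2 lower with IAA in ein2. Leaving out 1 array gave 1 higher and 16 to 21 lower with ethylene in aux1, 0 to 5 and 7 to 17 in Col, 3 to 6 higher and 2 to 3 lower with IAA in ein2, and 6 to 8 and 0 to 2 in Col.

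Of single members, the sign turned for AT1G03820 in aux1 ethylene (-0.03 without Col ethylene replicate 1 and -0.45 without aux1 ethylene replicate 2, up to 0.51), EXPB3 in aux1 ethylene (-0.21 without aux1 ethylene replicate 1, up to 2.09) and 258769_at in ein2 IAA (-0.17 without ein2 IAA replicate 1, up to 0.23), and the cause was not tested. With the replicate number as a block, 48, 64 and 22 members were called in the 3 tests, those of aux1 now including JAL22, AT5G49350 and AILP1 (adjusted p = 0.00541, 0.0343 and 0.0389). Over all probe sets it called 254 higher in aux1 ethylene (1.78%, against 144), 802 higher in ein2 IAA (5.63%, against 563) and 850 for the difference (5.97%, against 428). Deviations of same-numbered arrays correlated at 0.11 to 0.42 over the 12 pairs of groups. The labels do not say what arrays of the same number share, and the main fit used no block. Signal near background limits the size of differences in Col.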
